A study of Homo sapiens with 38 samples.

Results

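The region described here is a 10 Mb stretch of chromosome 2, from 172 to 182 Mb in GRCh37, with the HOXD gene cluster near its centre at 177 Mb. It was read from an in situ Hi-C map of RWPE-1 cells, an immortalized and non-tumorigenic line from normal prostate epithelium. Hi-C ligates pieces of DNA that lie close together in the nucleus and counts each ligated pair as a read pair between a pair of genome bins. The region was taken as all 250 bins of 40 kb between the 2 positions, of 6070 chromosome 2 bins held and 12302 bins with complete rows. The series studied a prostate cancer risk region on chromosome 7 and its effect on HOXA13. The Hi-C cells were wild type and untreated, and the duplicate experiments had been combined into 1 map, so nothing in the map measures the spread between cultures. Expression came from RNA-seq of 5 RWPE-1 control libraries, which the labels call wild type with genome editing as the treatment. Beside them stood 7 libraries with the chromosome 7 risk region deleted, 3 libraries of cells transfected with a HOXA13 vector and 3 of cells transfected with the matching eGFP plasmid. The transfected cells were collected after 48 hours by sorting the 10% with the brightest eGFP. The labels do not state whether the RWPE-1 control and deletion libraries came from separate clones.

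HOX genes encode homeodomain transcription factors that give cells their position along the body axis, and each cluster lists its genes in the order in which they act from head to tail. In the HOXD cluster, EVX2 and HOXD13 mark the posterior end, towards the centromere, and HOXD1 the anterior end, towards the telomere. In the embryo the cluster lies between a pair of large regulatory domains, and genes near its posterior and anterior ends contact the domain on their own side, while genes in between can contact either. The switch between these domains is best known from limb and genital development, and posterior HOXD genes are also active in the developing prostate.

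The promoters of the HOXD genes show what kind of sequence the cluster holds. RefSeq sequences of GRCh38.p14 were matched for 8 of the 9 HOXD genes, without HOXD9, all on the plus strand. Their coordinates are of another build than the Hi-C bins and were not placed on the map. The 250 bases before the start of the pair with the highest control expression, HOXD10 and HOXD11, and of the pair with the lowest, HOXD12 and HOXD1, are shown 5′ to 3′ with each CpG in capitals.
HOXD10 (chr2:176116528-176116777): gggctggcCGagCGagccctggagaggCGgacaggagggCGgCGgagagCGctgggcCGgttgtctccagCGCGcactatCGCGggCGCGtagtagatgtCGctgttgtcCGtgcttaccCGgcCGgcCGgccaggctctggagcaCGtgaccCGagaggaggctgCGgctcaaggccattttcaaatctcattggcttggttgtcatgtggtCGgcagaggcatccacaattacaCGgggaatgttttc
HOXD11 (chr2:176107030-176107279): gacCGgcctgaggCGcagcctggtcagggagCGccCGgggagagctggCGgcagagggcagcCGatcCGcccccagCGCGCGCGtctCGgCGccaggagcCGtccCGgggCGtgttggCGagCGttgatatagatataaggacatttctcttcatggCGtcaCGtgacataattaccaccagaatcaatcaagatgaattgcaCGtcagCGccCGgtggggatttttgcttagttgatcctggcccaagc
HOXD12 (chr2:176099545-176099794): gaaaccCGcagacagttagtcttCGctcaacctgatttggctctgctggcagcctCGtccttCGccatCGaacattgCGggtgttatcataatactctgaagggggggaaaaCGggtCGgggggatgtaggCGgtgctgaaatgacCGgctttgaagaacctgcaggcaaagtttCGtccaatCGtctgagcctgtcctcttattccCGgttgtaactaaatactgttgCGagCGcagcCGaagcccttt
HOXD1 (chr2:176188418-176188667): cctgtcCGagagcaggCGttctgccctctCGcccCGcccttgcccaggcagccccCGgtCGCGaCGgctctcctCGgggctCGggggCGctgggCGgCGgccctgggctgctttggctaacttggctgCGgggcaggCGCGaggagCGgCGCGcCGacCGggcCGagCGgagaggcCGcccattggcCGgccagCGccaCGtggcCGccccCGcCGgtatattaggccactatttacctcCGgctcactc
The stretches held 23 CpG dinucleotides each in HOXD10 and HOXD11, 16 in HOXD12 and 31 in HOXD1, and the median of 35116 RefSeq promoters was 11. Of all promoters, 74.2% had fewer than HOXD10 and HOXD11, 59.0% fewer than HOXD12 and 89.1% fewer than HOXD1. HOXD8 held 28, HOXD13 and HOXD3 held 21 each, and HOXD4 held 4. Of the 8 matched promoters that of HOXD1 held the most, and HOXD1 had the lowest mean control expression of the HOXD genes. The letters TATAAA, searched on both strands, stood in 10.7% of all promoters of this length and, of the 8 HOXD promoters, in that of HOXD13.

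The region held 1093573 read pairs, 3.4% of the 32124453 within the chromosome 2 bins held, and 28062 of its 31375 bin pairs (89.4%) had at least 1. The median bin pair held 61.5 read pairs at 400 kb, 19 at 1 Mb and 2 at 5 Mb, so single bin pairs are well measured up to about 1 Mb only. No bin of the region fell under the coverage minimum, and coverage ran from 0.60 to 1.43 of the chromosome's median. Intervals below are 95% intervals, exact Poisson for read pairs and exact Clopper-Pearson for shares. Those of ratios and scores scale the value by the Poisson limits of its summed read pairs. For means over many bin pairs they are therefore approximate. All intervals cover counting error only, since the replicates were combined. Any PCR copies left in the counts would make them too narrow, since copies are not independent molecules. The cluster was taken as the 4 bins around 177 Mb, named by their starts: 176.92, 176.96, 177.00 and 177.04 Mb. No gene model of the map's build was used, so which HOXD gene lies in which bin is not given.

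A sharp contact boundary stood inside the HOXD cluster. The insulation score, the log2 ratio of the mean contact across a bin (400 kb on either side) to the chromosome's mean, was -1.69 at the bin chr2:176960001-177000000 (counting interval -1.75 to -1.63, from 2244 read pairs spanning it). Its neighbours scored -1.48 at 176.92 Mb and -1.26 at 177.00 Mb, and the score climbed to -0.41 at 177.04 Mb and 0.10 at 177.08 Mb. Of 5779 scored bins on chromosome 2, 7 were lower (0.121%), and of 5411 on chromosome 1, 4 were lower. The chromosome 2 median was -0.02 and its lowest 5% began at -0.92. The dip was narrow: with squares of 200 kb the score was -2.24 and 1 bin of chromosome 2 was lower, while with squares of 800 kb it was -0.62 and 638 bins (11.1%) were lower.

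**Figure D1:**
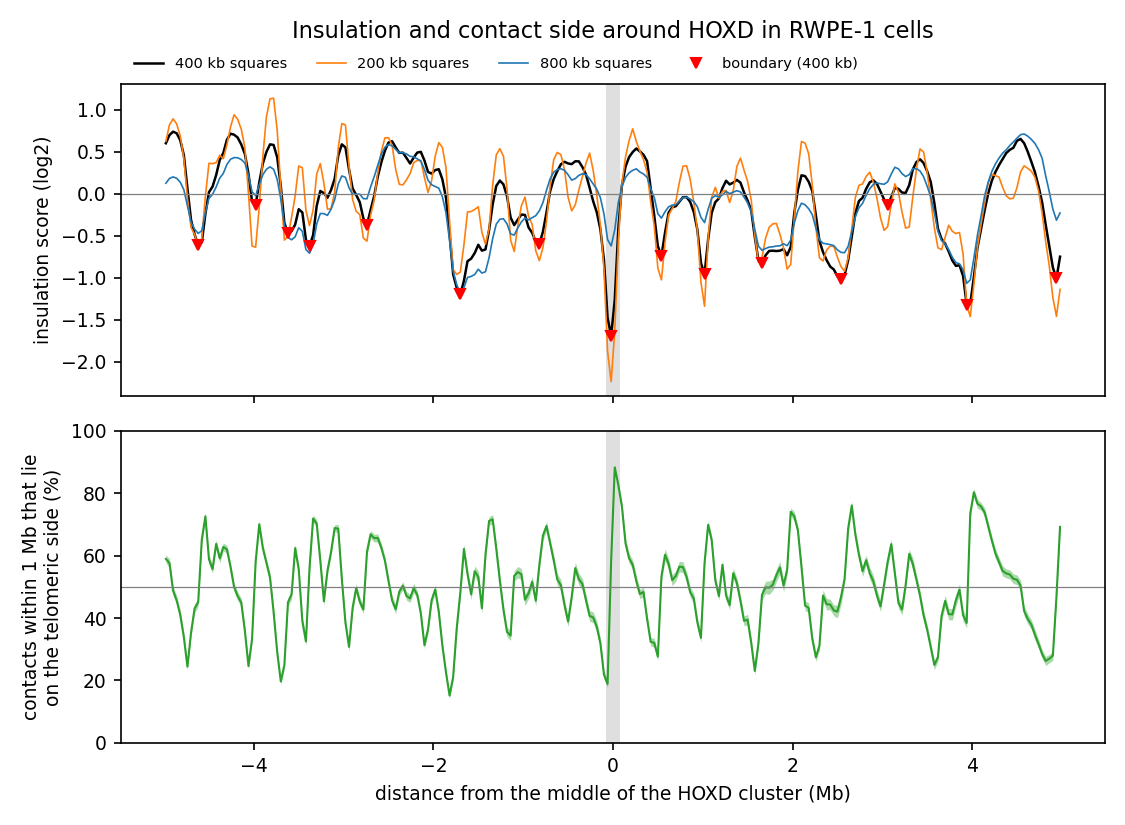
Upper panel, insulation score (log2) of each 40 kb bin against its distance from 177 Mb (Mb), for squares of 200, 400 and 800 kb, with boundaries as red triangles. Lower panel, percent of each bin's contacts within 1 Mb that lie on its telomeric side, with the exact 95% counting interval as a band. Grey marks the 4 cluster bins, where the 400 kb score reaches -1.69 and the telomeric share climbs from 18.9% to 88.3% over 2 bins.

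The 4 cluster bins contacted different sides. Of the read pairs of the 176.92 Mb bin with bins 80 kb to 1 Mb away, 3114 lay on the centromeric and 725 on the telomeric side, a telomeric share of 18.9% (17.7 to 20.2). The 177.00 Mb bin had 548 centromeric and 4142 telomeric read pairs, a share of 88.3% (87.4 to 89.2). The bin between them, 176.96 Mb, contacted both sides, with 1970 centromeric and 2783 telomeric read pairs (58.6%, 57.14 to 59.96). The 177.04 Mb bin followed the telomeric side at 82.6% (81.5 to 83.7). The intervals of the 4 bins did not overlap. Outside the cluster the share was 21.9% at 176.88 Mb and 75.7% at 177.08 Mb.

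Few bins of the chromosome were as one-sided. The median share over 5845 bins was 50.3%, with 5% of bins under 28.3% and 5% over 70.9%. A share at least that of the 177.00 Mb bin was found in 8 bins (0.137%), and a share no higher than that of the 176.92 Mb bin in 44 (0.753%). The step of 69.4 percentage points over 2 bins at the cluster was the largest of the 5804 such steps along the chromosome 2 bins held. The next boundaries of the region in step size were 42.8 points at 173.36 Mb and 41.4 points at 181.92 Mb, each measured between the bins on either side of the boundary bin 80 kb from it, where the cluster boundary gave 60.8.

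The cluster bins made few contacts with each other across the boundary. The bins at 176.92 and 177.00 Mb shared 41 read pairs (29.4 to 55.6) where the balanced map expected 298.8 at 80 kb, a ratio of observed to expected of 0.137 (0.098 to 0.186). All 5853 other chromosome 2 pairs at that distance were higher. The bins at 176.92 and 177.04 Mb shared 47 read pairs, 0.190 of expected. The bin in the middle was separated from both neighbours: 176.96 Mb had 304 read pairs with 176.92 Mb (0.381 of expected) and 329 with 177.00 Mb (0.380). The pair 177.00 and 177.04 Mb, both telomeric in their contacts, had 681 read pairs and 0.862 of expected (0.798 to 0.929). At 40 kb, 3580 of 5867 chromosome 2 pairs were higher than this last pair, against 5853 and 5854 for the pairs of the middle bin. Without balancing, the pair 177.00 and 177.04 Mb was 1.12 times expected, so its direction depends on balancing. The middle bin was then at 0.499 with 176.92 Mb and 0.540 with 177.00 Mb, and the pair 176.92 and 177.00 Mb at 0.143.

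On the centromeric side, the contacts of the cluster gathered at 176.2 Mb. The 176.92 Mb bin and the bin chr2:176200001-176240000, 720 kb apart, shared 217 read pairs where 38.3 were expected, a ratio of 5.67 (4.94 to 6.47), and 4 of 5789 chromosome 2 pairs at that distance were higher. The bins beside it were high too, with 165 read pairs and 4.28 at 176.24 Mb and 134 read pairs and 4.18 at 176.16 Mb. Nearer the cluster a lower peak stood at 176.52 Mb, with 227 read pairs and 3.26 times expected. The 176.20 Mb bin was 2.74 times expected with 176.96 Mb. Its ratio with 177.00 Mb was 0.747 (27 read pairs, 0.492 to 1.09) and with 177.04 Mb 0.695 (0.458 to 1.01), intervals that include 1. The bins beside it were below expected with 177.00 Mb, 176.16 Mb at 0.423 (0.225 to 0.723) and 176.24 Mb at 0.608 (0.381 to 0.921). With 177.04 Mb they were at 0.847 (0.563 to 1.23) and 0.620 (0.397 to 0.923).

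On the telomeric side, the contacts gathered at 177.4 to 177.5 Mb and at 178.0 Mb. The bins at 177.00 Mb and chr2:177480001-177520000, 480 kb apart, shared 439 read pairs where 71.3 were expected, a ratio of 6.16 (5.60 to 6.76), and 2 of 5811 chromosome 2 pairs at that distance were higher. The same cluster bin had 470 read pairs and 5.10 times expected with 177.40 Mb, and 272 and 3.68 with the bin between, 177.44 Mb. The 177.48 Mb bin was 4.46 times expected with 176.96 Mb and 3.07 with 177.04 Mb, but 0.980 (54 read pairs, 0.736 to 1.28) with 176.92 Mb. With 176.92 Mb, the 177.40 Mb bin was at 0.547 (0.387 to 0.751) and the 177.44 Mb bin at 0.692 (0.492 to 0.946). The far partner, chr2:178000001-178040000, was contacted most by the middle bin: 176.96 Mb shared 155 read pairs with it at 1040 kb, 3.95 times expected (3.36 to 4.63), against 2.37 for 177.00 Mb, 1.95 for 177.04 Mb and 0.842 for 176.92 Mb. The middle bin was also the one with high ratios on both sides, since it reached 3.20 times expected (113 read pairs) with 176.00 Mb. Without balancing, the ratio of 176.96 with 178.00 Mb was 7.28 and that of 177.00 with 177.48 Mb was 7.44. The coverage of the 176.96 Mb bin was 1.36 of the median.

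**Figure D2:**
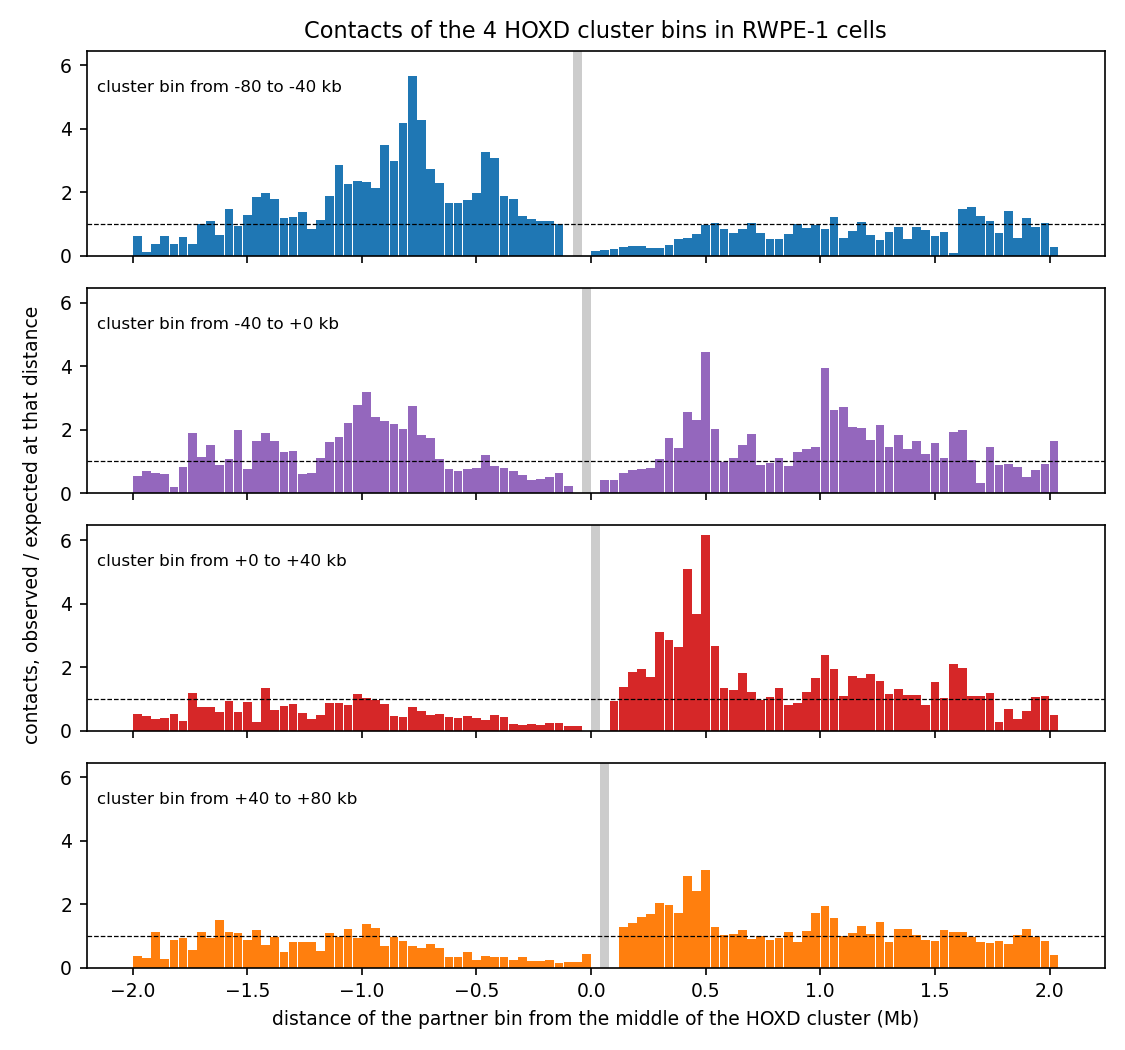
Contacts of each of the 4 cluster bins (panels) with bins up to 2 Mb away, as observed over expected read pairs at that distance, against the partner's distance from 177 Mb (Mb). The dashed line marks 1 and the grey bar the cluster bin itself. The top bin peaks at 5.67 on the centromeric side, the third at 6.16 on the telomeric side, and the second has peaks on both sides.

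Enriched partners were also counted, from the same contacts of the cluster bins, so the counts are no separate evidence on the sides. Over chromosome 2, 7.20% of bin pairs at 200 kb to 2 Mb reached 2 times expected. In the region 441 of 10235 such pairs did (4.31%), and among pairs with a cluster bin 45 of 368 did (12.2%). All 14 of the 176.92 Mb bin lay on the centromeric side, and all 9 of 177.00 Mb and all 4 of 177.04 Mb on the telomeric side. The 176.96 Mb bin had 8 centromeric and 10 telomeric.

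Contacts between the flanks were below expected, most of all near the cluster. Pairs with 1 bin in the 1 Mb on either side of the cluster and 200 to 960 kb apart averaged 0.658 of expected (0.639 to 0.677, 4589 read pairs), and 176 of 210 such pairs (83.8%) were below expected. Pairs at these distances within the centromeric 1 Mb averaged 1.19 and within the telomeric 1 Mb 0.957. The mix of distances differed, with 174 pairs across at 520 to 960 kb against 78 within each flank. At 200 to 480 kb the ratio across was 0.319, and at 520 to 960 kb it was 0.728. In the same ranges it was 1.08 and 1.36 within the centromeric flank, and 0.975 and 0.927 within the telomeric flank. As an average over the flanks, 0.658 was not rare: contacts across were lower at 1021 of 5667 chromosome 2 positions, where the median position had 0.984.

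Relative to what distance predicts, the domain on the centromeric side of the cluster contacted the domain beyond its telomeric neighbour more than the neighbour itself. Boundaries at 176.16, 176.96, 177.52 and 178.00 Mb divide this stretch into 3 domains. The centromeric domain, 176.16 to 176.96 Mb, averaged 0.608 of expected (0.592 to 0.624, 5509 read pairs) with the adjoining domain at 176.96 to 177.52 Mb. With the next domain, 177.52 to 178.00 Mb, it averaged 1.50 (1.46 to 1.54, 4971 read pairs). The same held one domain further out: 175.28 to 176.16 Mb averaged 1.10 with 176.96 to 177.52 Mb and 1.54 (1.48 to 1.59) with 177.52 to 178.00 Mb. That was the highest value of any pair of domains in the region, but not particular to 177.52 to 178.00 Mb. The 175.28 to 176.16 Mb domain averaged 1.46 with 178.00 to 178.64 Mb and 1.53 (1.48 to 1.59) with 178.64 to 179.52 Mb. With those same domains, 176.16 to 176.96 Mb averaged 0.946 and 1.22. The telomeric domain at 176.96 to 177.52 Mb averaged 0.792 with its neighbour at 177.52 to 178.00 Mb. Of the outer ends of the cluster's strong contacts, 176.20 and 177.48 Mb shared 50 read pairs, 2.48 times expected (1.84 to 3.27), and 217 of 5759 pairs at that distance were higher. With 177.40 Mb and 178.00 Mb, 176.20 Mb was 1.34 (0.908 to 1.90) and 1.46 (0.901 to 2.23) times expected, intervals that include 1.

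**Figure D3:**
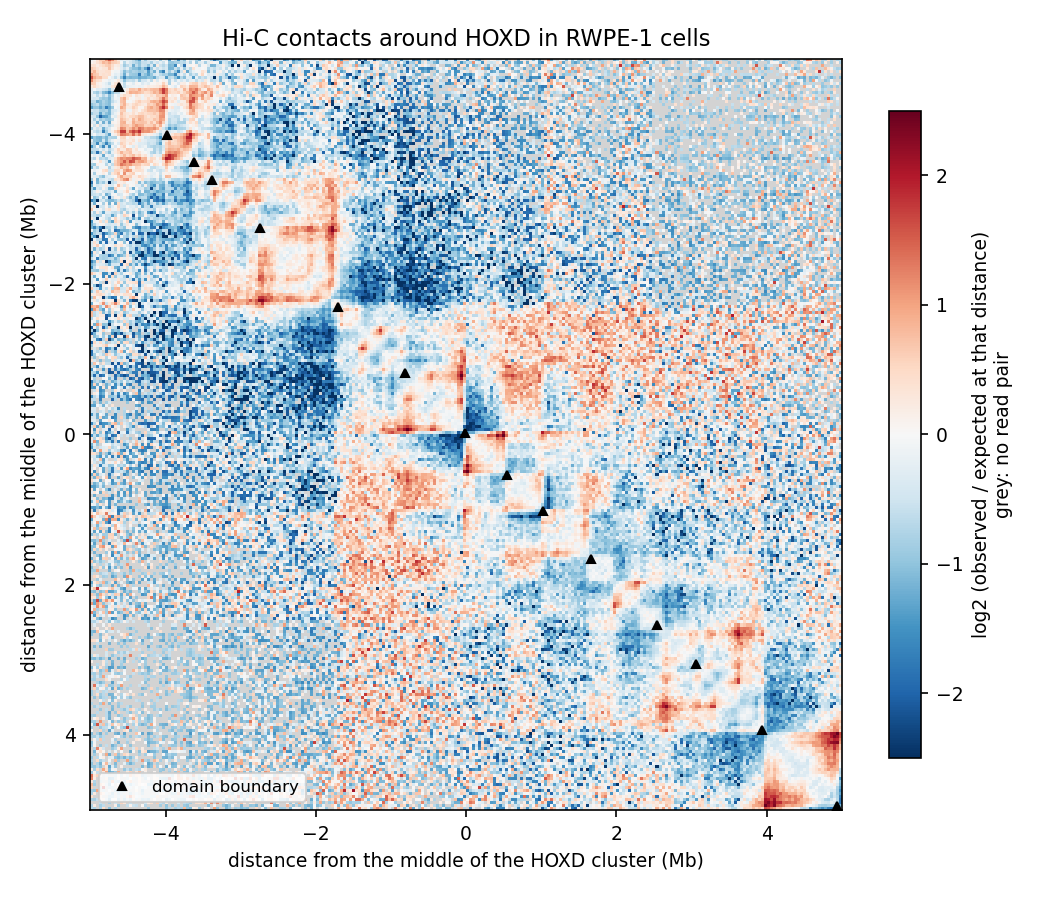
Contact map of the 250 bins as log2 of observed over expected read pairs, both axes in Mb from 177 Mb, with the 15 boundaries as black triangles on the diagonal and bin pairs without a read pair in grey. Blue wedges beside the diagonal at 0 are the depleted contacts across the cluster, and the red blocks off the diagonal include the pair of domains with a mean ratio of 1.50.

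Within domains, contacts on either side of the cluster were not out of the ordinary for chromosome 2. Pairs 80 kb or more apart averaged 1.39 times expected in the centromeric domain of 760 kb and 1.73 in the telomeric domain of 520 kb. Of 340 chromosome 2 domains, 52.9% and 78.5% had lower means, and the median domain had 1.37 and a length of 520 kb. The domains farther out, 175.28 to 176.16 Mb and 178.64 to 179.52 Mb, averaged 0.924 and 0.888, with 1.47% and 0.588% of domains lower.

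The region held 15 boundaries, insulation minima with a prominence of at least 0.2, in 250 bins, beside 352 in 5779 bins over chromosome 2 (6.09%). The cluster boundary had the 5th lowest score of the 352 and the 2nd largest prominence, 2.64. The next strongest in the region were 180.92 Mb (score -1.32, prominence 1.86), 175.28 Mb (-1.20 and 1.58), 179.52 Mb (-1.01 and 1.42) and 181.92 Mb (-1.01 and 1.28). Both boundaries that close the cluster's domains on the outside were weaker, -0.60 at 176.16 Mb and -0.74 at 177.52 Mb. Scores of the others lay between -0.13 and -0.96. A boundary was also found in the cluster with a prominence of 0.1 or 0.4, with squares of 200 or 800 kb and without balancing.

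The single highest ratio in the region lay outside the cluster. The bins at 180.96 and 181.92 Mb, 960 kb apart, shared 230 read pairs at 7.55 times expected (6.60 to 8.59), and 0 of 5778 chromosome 2 pairs at that distance were higher. They close a domain between the boundaries at 180.92 and 181.92 Mb. Leaving out pairs within 3 bins of a stronger pair, the cluster's own contacts came next, then 179.64 with 180.60 Mb (4.96, 117 read pairs), 174.28 with 175.20 Mb (4.88, 149 read pairs) and 173.00 with 173.32 Mb (4.16, 565 read pairs). A long pair that spanned the cluster, 175.36 with 178.08 Mb at 2720 kb, rested on 21 read pairs, 1 above the minimum for a named pair, at 3.55 times expected (2.20 to 5.42), and 64 of 5715 pairs at that distance were higher. With other chromosomes the 4 cluster bins had 6048 of their 47746 read pairs (12.7%), at most 4 with any nuclear bin, too few to name a partner.

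The chromosome's compartments, the large-scale classes of chromatin that prefer their own kind, changed in the region on the centromeric side of the cluster. The first eigenvector of the 200 kb contact correlations, given here in SD with the sign set so that the start of the region is above 0, took 27.6% of the variance. Scores ran from 1.06 to 1.55 between 172.0 and 175.4 Mb, were 0.31 at 175.4 Mb and reached -0.94 at 176.4 Mb. The bin that starts at 177.0 Mb scored 0.19, between -0.39 before it and -0.08 after it, and another local peak of 0.56 stood at 178.0 Mb. With bins of 400 kb the bin that holds 177.0 Mb scored -0.25, so the sign at the cluster depends on the bin size. Which class holds the active genes was not assigned. Across the change of score, the domain at 174.24 to 175.28 Mb averaged 0.358 of expected with that at 176.16 to 176.96 Mb and 0.660 with that at 176.96 to 177.52 Mb.

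In the control libraries, expression in the cluster was carried by genes of its middle and posterior part. Levels are in TPM, a unit that corrects for transcript length, so genes can be set beside each other. HOXD10 was highest with 36.29, 37.27, 30.7, 38.53 and 41.24 TPM in control libraries 1 to 5 (36.8 ± 3.89, SD, n = 5). HOXD11 followed with 28.65, 28.57, 23.14, 39.06 and 29.68 (29.8 ± 5.77). The 2 ranges overlap, with library 4 higher for HOXD11 than for HOXD10. Their sum was 77.1% ± 2.43 of the summed TPM of the 9 HOXD genes, which was 86.3 ± 9.69 (70.8 to 96.0).

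HOXD9 and HOXD8, the next genes towards the telomere, were lower and overlapped each other. HOXD9 had 10.84, 9.30, 7.04, 10.95 and 11.21 TPM (9.87 ± 1.75) and HOXD8 7.9, 6.61, 6.42, 4.44 and 6.54 (6.38 ± 1.24). HOXD13, the most posterior gene, required for digit and genital development, had 2.30, 1.93, 3.17, 2.22 and 3.37 (2.60 ± 0.633), below every library's HOXD8. HOXD12, which lies between HOXD13 and HOXD11, was listed at 0.06 and 0.03 in libraries 1 and 4 and at 0 in the other three. The levels along the cluster therefore did not follow gene order: HOXD12 was at or near 0 with transcribed genes on both sides.

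The anterior genes were low or at 0. HOXD4 had 0.87, 0.94, 0.18, 0.59 and 0.29 TPM (0.574 ± 0.338) and HOXD3 0.56, 0.18, 0.16, 0.15 and 0.14. HOXD1 was listed at 0.04 in library 4 and at 0 in the others. EVX2, the homeobox gene beside HOXD13, was listed at 0.01 in library 5 and at 0 in the others. TPM carries no counts, so no limit can be set on values at 0.

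**Figure D4:**
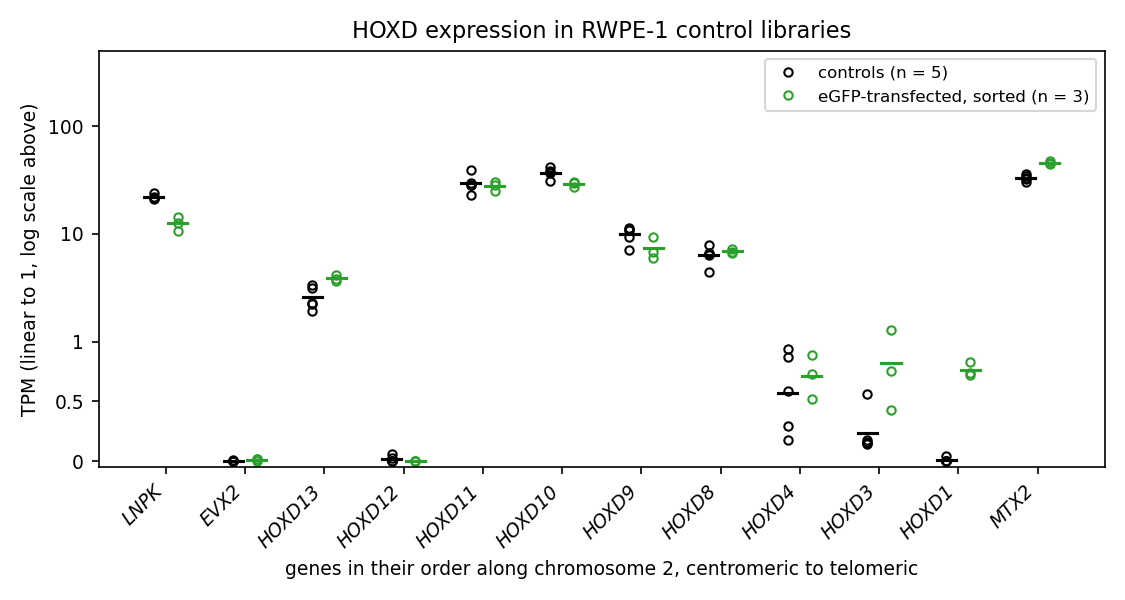
TPM (linear up to 1, log scale above) of EVX2, the 9 HOXD genes and their neighbours LNPK and MTX2, in gene order from centromere to telomere. Each circle is a library and each bar a group mean, black for the 5 controls and green for the 3 eGFP-transfected and sorted libraries. HOXD10 and HOXD11 stand highest of the HOXD genes, and HOXD1 is above 0.7 in all eGFP libraries and at most 0.04 in the controls.

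The genes on both sides of the cluster were expressed. Towards the centromere, LNPK, a protein of endoplasmic reticulum junctions, had 21.96 ± 1.11 TPM and ATP5MC3, a subunit of mitochondrial ATP synthase, 235.5 ± 22.3 (n = 5 each). Towards the telomere, MTX2, a mitochondrial outer membrane import protein, had 33.2 ± 2.21 and HNRNPA3, an RNA-binding protein, 352.8 ± 33.8. Of the 15 nearest protein-coding genes on each side in RefSeq order, 12 reached a mean of 1 TPM on the centromeric and 12 on the telomeric side, with medians of 21.96 and 12.8. Of EVX2 and the 9 HOXD genes 5 did, with a median of 1.59. The cluster's long RNAs HOXD-AS2, HAGLR and HAGLROS were at 1.65 ± 0.579, 1.00 ± 0.194 and 1.19 ± 0.345. Whether reads were counted by strand is not stated, so reads of overlapping or antisense genes such as HAGLR, HAGLROS, HOXD-AS2, HOXD3 and HOXD4 cannot be told apart with certainty.

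The eGFP libraries, a further set of RWPE-1 cells without the deletion or HOXA13, also had HOXD10 and HOXD11 highest, at 28.85 ± 1.62 and 27.84 ± 2.54 TPM (n = 3). Values that do not overlap between the eGFP and control libraries were common: 9885 of 32156 genes listed above 0 in any of the 8 libraries (30.7%), 14 of the 30 neighbours and 5 of the 13 cluster genes and RNAs. Of these 5, HOXD10 was lower with eGFP (27.05 to 30.19 TPM). The other 4 were higher: HOXD13 at 3.80, 3.66 and 4.11, HOXD1 at 0.72, 0.74 and 0.83, HOXD-AS2 at 5.14, 4.36 and 4.29, and HAGLR at 2.75, 2.21 and 3.11. HOXD3 (0.75, 0.43 and 1.27) and HOXD4 (0.89, 0.52 and 0.73), between HOXD1 and the middle of the cluster, overlapped the controls. For HOXD3 the overlap rested on control library 1 (0.56), and the other controls had at most 0.18. Beside the cluster, LNPK was at 12.5 ± 1.84, below every control, and MTX2 at 45.5 ± 1.62, above every control. The HOXA13-transfected libraries, sorted the same way, had HOXD1 at 0.28, 0.84 and 0.66. The 7 deletion libraries had at most 0.02. The transfected and the other libraries differ in transfection and sorting together. The labels also give genome editing as the treatment of the controls. These differences cannot be told apart, and no test was made.

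In each of the study's own comparisons in RWPE-1, 1 of the cluster's genes and RNAs was called, which does not set them apart from all genes. With the chromosome 7 risk region deleted, 17.4% of 17985 genes had an adjusted p under 0.05 in the authors' deposited table, made with DESeq2, and of the 13 cluster genes and RNAs 9 had an adjusted p and 1 was under 0.05. That gene was HOXD13, at -0.58 on the log2 scale (adjusted p = 0.0069) in the authors' deposited table. Its TPM was between 1.37 and 2.44 in the 7 deletion libraries, median 1.68, and between 1.93 and 3.37 in the 5 controls, so the groups overlap. In the same deposited table by the authors, HOXD10 and HOXD11 were at -0.06 and -0.10 (adjusted p = 0.765 and 0.678), and MTX2 at 0.18 (adjusted p = 0.0376). For HOXA13 against eGFP, 12.1% of 12329 genes were called in the authors' deposited table, and 7 of the 13 had an adjusted p, of which HAGLR was called at -0.40 (adjusted p = 0.0392). HAGLR was at 1.67, 1.57 and 2.00 TPM with HOXA13, each below every eGFP library. MTX2 was at -0.26 in the authors' deposited table (adjusted p = 0.0241), and HOXD13 at -0.13 (adjusted p = 0.559).

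The control libraries carried markers of basal prostate epithelium. The basal keratins KRT5 and KRT14 ranged over the 5 libraries from 5962 to 10310 TPM and from 2843 to 6151 TPM, and TP63, a transcription factor of basal cells, from 34.0 to 117.3 TPM. Of the luminal markers, the keratins KRT8 (144.2 to 459.8 TPM) and KRT18 (183.6 to 294.2 TPM) were present, while KLK3, which encodes prostate-specific antigen, was at 0 in every library. Of the fibroblast list 1 of 5 reached a mean of 1 TPM, COL1A1, with DCN and LUM at 0 and a sum of 2.86 to 8.70. The immune list had CD14 (sum 1.64 to 11.9), with PTPRC and CD3E at 0, and the 2 listed endothelial genes summed to at most 0.16.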

How the data were processed

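In situ Hi-C used the enzyme MboI, in duplicate, per the labels' protocols. The authors deposited 1 combined map, in which each value is the unnormalized read-pair count of 2 bins of 40 kb; the submitters' processing notes name HiC-Pro 2.8.0 and GRCh37. The lines held end within chromosome 2. The last, incomplete line was left out, and the map of smaller bins was not used. Chromosome 2 was balanced iteratively (pairs within a bin or between neighbours left out, bins under 0.2 of the median coverage dropped, 175 in number), and each contact was divided by the mean at its distance. Shares used raw counts.

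The deposited expression table gives TPM for 60252 genes, and the deposited DESeq2 1.14.1 tables hold the log2 fold changes and adjusted p-values that the authors computed. The notes also name STAR 2.5.2b, RSEM 1.3.0 and featureCounts 1.5.1 with no role. TPM hold no depth. Whether libraries are separate cultures is not stated for the control and deletion groups, and the p-values then reflect only how far these samples vary, which may be technical.

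No test was made on the single map. The procedure was tested on a simulated map with placed boundaries and enriched pairs, and the outcome is not reported here. Genes and lists (HOXD genes, neighbours, cell type markers) and the region were chosen with earlier results of these data known. Some markers of the basal and luminal lists, and counts and sums over those lists, are not reported here. Contacts were named from the 10 strongest of the cluster and of the region at 200 kb or more with at least 20 read pairs. A second list for the region left out pairs within 3 bins of a stronger pair. Pairs among the cluster bins, of strong partners with every cluster bin and among the outer ends were given whatever their rank. No gene coordinates of GRCh37 were used, so the 15 nearest genes on each side in RefSeq order stood in for the genes of the region, and genes at boundaries or contacts were not named. Alternatives covered square size, prominence, balancing, expected value, reach, fold, bin size and libraries. Python 3.11.15, numpy 2.4.6, pandas 2.3.3 and scipy 1.17.1 were used.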

Additional observations from a re-analysis of the deposited data

Results flagged for a closer look

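In 4 of 30 groups of libraries looked at (1 of the 13 cluster genes and RNAs, LNPK or MTX2 in the 5 controls or the 7 deletion libraries), 1 library lay far from the others. Chance gives this in about 1 group of 20 for values without ties, a rate that does not hold for 3 of the 4, where every other library is at 0. All 4 concern genes at or near 0. EVX2 was listed at 0.01 TPM in 1 control and at 0.01 TPM in 1 deletion library, and at 0 in the rest of each group. HOXD1 was at 0.04 TPM in 1 control and at 0 in the others. HOXD3 was at 0.56 TPM in control library 1, where the nearest other control had 0.18.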

How the results depend on the processing

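The insulation score at the cluster, -1.69, was -2.24 with squares of 200 kb, -0.62 with 800 kb and -1.79 on raw read pairs. The 15 boundaries became 25 with squares of 200 kb. The telomeric step, 69.4 points, was 75.9 within 480 kb and 62.4 within 2 Mb. The ratio across the flanks, 0.658, was 0.616 on raw read pairs, 0.755 with the median in place of the mean at each distance, 0.726 with the chromosome 1 decay and, chosen after seeing the data, 0.678 with a cluster of 3 bins on each side. At 3 times expected 0.694% of the region's pairs passed, against 1.58% over chromosome 2. The compartment score of 0.19 reversed to -0.25 at 400 kb, and the cause was not tested. The summed HOXD expression of 86.3 TPM ranged from 83.9 to 90.2 when each control was left out in turn and was 77.0 in the eGFP libraries. The other alternatives for these results changed no direction and no count by over 1.5 times. Contacts between developmental gene loci were not run, since no gene coordinates of the map's build were used. No paired analysis was possible because the Hi-C replicates were combined into 1 map and the expression values come from no test. Depth limits single bin pairs beyond about 1 Mb (median of 19 read pairs) and contacts with other chromosomes.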
